A study of Mus musculus with 12 samples.

Results

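The interferon response genes examined here are 35 genes whose transcripts are known to be raised by interferons, picked by symbol from the 38087 genes of the count table. All 35 had a row in the table, and all 35 were among the 14170 genes with enough counts to be tested. They were measured in whole liver of germ-free male mice of strain C57BL/6j, aged 13 to 16 weeks, which carry no gut microbiota. The ghrelin group (n = 6) was injected subcutaneously with rat ghrelin, a stomach peptide hormone, at 10 µg per mouse, every day for 5 days. The PBS group (n = 6) was injected with phosphate-buffered saline on the same schedule, and all 12 samples are labelled zeitgeber time 2, in hours after lights on. Each group therefore shares the germ-free state, the sex and the injections, and no colonised or uninjected mice are part of the comparison. No label says that each library comes from a separate mouse; each is treated as 1 animal here, and if that is wrong the p-values measure only the spread between libraries.

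Interferons are secreted proteins that bind receptors on the cell surface and switch on the kinases of the JAK family. Type I and type III interferons lead to ISGF3, a complex that includes STAT2 and IRF9 and binds the interferon-stimulated response element (ISRE), whereas interferon gamma acts through the gamma-activated site (GAS). The target genes encode sensors of viral RNA and DNA, proteins that block viral replication, GTPases that attack the vacuoles of intracellular pathogens, and the proteasome subunits and transporter that prepare peptides for MHC class I. In the liver, hepatocytes, Kupffer cells and endothelial cells all respond to interferon, and a basal level of these transcripts is present without infection.

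The promoters of the genes were read first, because ISRE and GAS letters can be searched independently of the counts. RefSeq promoter windows on GRCm38.p6, each of 300 bases from 250 before to 50 after a transcript start, were found for 27 of the 35 genes, in 31 windows. Usp18, Dhx58, Zbp1, Mx1, Oas2, Gbp6, Gbp9 and Iigp1 had no matched window. The ISRE was searched as GAAANNGAAA, with TTTCNNTTTC as the other strand, and the GAS as TTCNNNGAA, which reads the same on the other strand. ISRE letters stood in the windows of 16 of 27 genes (51.6% of their windows), against 3.44% of all 32851 windows. GAS letters stood in those of 8 of 27 genes (25.8% of their windows), against 8.3% of all windows. A match of this kind describes letters in a window, shows no binding and does not assign a gene to a branch of the pathway.

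The windows differed by the role of the gene, with few matched genes in most roles. All 3 matched guanylate-binding protein genes and all 3 matched immunity-related GTPase genes held an ISRE match, as did both matched sensors (Ddx58 and Ifih1) and 7 of 11 antiviral effectors. Of the 4 matched ISGF3 and STAT signalling genes 1, Stat2, held an ISRE match. None of the 4 immunoproteasome and peptide transport genes held one, and 1 of them, Psmb8, held a GAS match. Bst2, Oas1a, Gbp7, Irgm2 and Igtp held both kinds of match, which 0.454% of all windows did. Neither kind was found in 8 of the 27 genes. The bases before the start are printed below for 6 genes on which the results turn or which show an arrangement, 5′ to 3′ on the strand of the gene, with every ISRE and GAS match in capitals. Irf1 (chr11:53769764-53770013, plus strand) had a GAS match alone, 90 bases before the start.
Irf1: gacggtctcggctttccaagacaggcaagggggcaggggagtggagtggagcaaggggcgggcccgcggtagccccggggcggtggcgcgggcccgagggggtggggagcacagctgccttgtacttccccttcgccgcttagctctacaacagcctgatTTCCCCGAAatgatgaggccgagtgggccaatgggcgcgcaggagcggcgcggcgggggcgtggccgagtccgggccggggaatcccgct
Igtp (chr11:58199306-58199555, plus strand) and Irgm2 (chr11:58214727-58214976, plus strand) are on chromosome 11. Their annotated spans in GENCODE M21 overlap (58199556-58207591 and 58199618-58222782), and the Irgm2 window lies inside the Irgm2 span. In each window a GAS match is followed after 2 bases by an ISRE match. The stretch of 21 bases that spans both matches is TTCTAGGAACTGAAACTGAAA in Igtp and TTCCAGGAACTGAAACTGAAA in Irgm2, identical at 20 of 21 positions.
Igtp: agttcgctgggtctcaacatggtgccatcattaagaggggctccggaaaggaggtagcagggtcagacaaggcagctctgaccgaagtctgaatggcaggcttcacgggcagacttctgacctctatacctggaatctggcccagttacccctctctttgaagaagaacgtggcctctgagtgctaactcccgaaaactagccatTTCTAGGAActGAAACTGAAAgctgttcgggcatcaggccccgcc
Irgm2: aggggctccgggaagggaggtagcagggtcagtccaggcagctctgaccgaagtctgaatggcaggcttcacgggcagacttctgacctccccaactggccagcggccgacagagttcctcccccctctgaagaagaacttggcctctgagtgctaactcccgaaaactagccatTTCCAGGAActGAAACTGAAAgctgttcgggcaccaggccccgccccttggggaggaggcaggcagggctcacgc
Gbp7 (chr3:142530086-142530335, plus strand) had 2 GAS matches upstream of its ISRE match.
Gbp7: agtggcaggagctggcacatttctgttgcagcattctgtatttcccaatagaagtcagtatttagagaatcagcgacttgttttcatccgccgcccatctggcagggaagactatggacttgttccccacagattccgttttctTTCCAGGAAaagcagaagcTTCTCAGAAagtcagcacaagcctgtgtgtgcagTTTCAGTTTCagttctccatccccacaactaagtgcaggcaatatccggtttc
Isg15 (chr4:156200819-156201068, minus strand) had 3 overlapping ISRE matches in a row, and Ifit1 (chr19:34640639-34640888, plus strand) had 2 separate ones, with no GAS match in either.
Isg15: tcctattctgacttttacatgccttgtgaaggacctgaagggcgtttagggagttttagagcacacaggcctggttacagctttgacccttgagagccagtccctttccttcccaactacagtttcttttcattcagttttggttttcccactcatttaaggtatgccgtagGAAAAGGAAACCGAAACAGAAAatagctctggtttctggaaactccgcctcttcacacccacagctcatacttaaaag
Ifit1: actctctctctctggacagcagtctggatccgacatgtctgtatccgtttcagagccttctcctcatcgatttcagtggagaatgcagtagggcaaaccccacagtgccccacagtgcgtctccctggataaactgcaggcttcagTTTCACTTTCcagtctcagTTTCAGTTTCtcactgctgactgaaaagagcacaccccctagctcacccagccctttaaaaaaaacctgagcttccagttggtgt

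**Figure D1:**
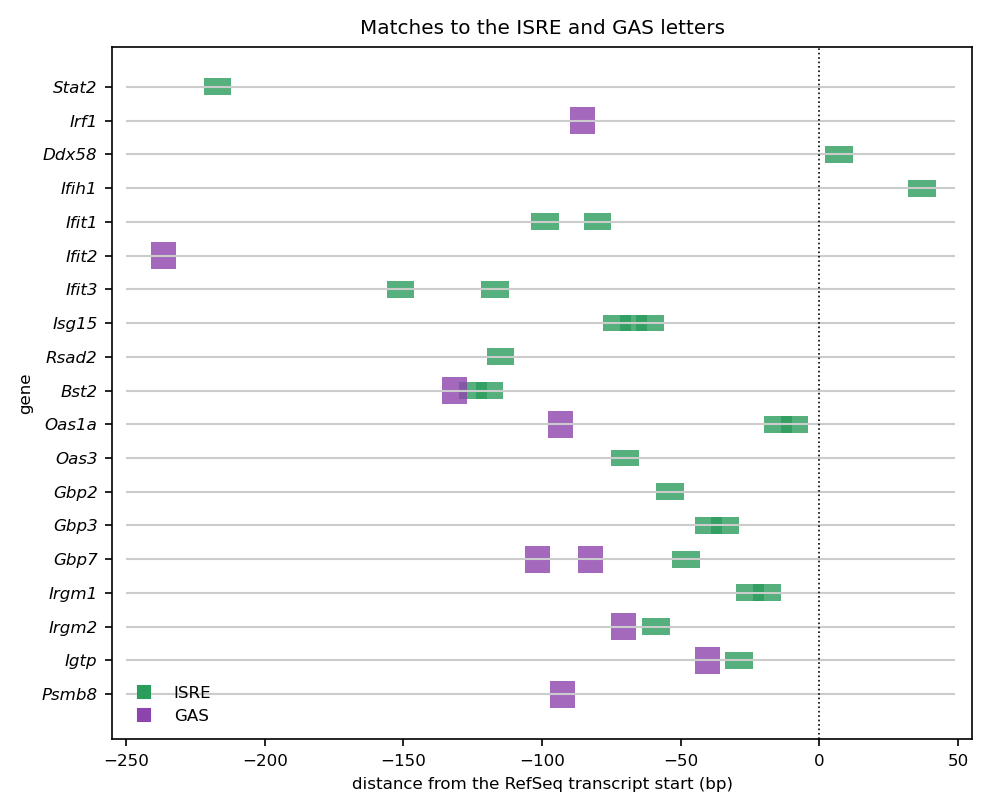
Positions of ISRE letters (green) and GAS letters (purple) in the promoter windows of the interferon response genes that hold a match; the x axis is the distance from the RefSeq transcript start in bp, the dotted line is the start, and each row is a gene. In Igtp and Irgm2 the GAS and ISRE matches lie side by side, at 45 and 75 bases before the start for the GAS match.

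Depth differed between libraries. Ghrelin 2, ghrelin 1 and ghrelin 5 had the fewest counts (15775059, 16553401 and 16920864), below every PBS library (18746597 or more). Libraries held 15775059 to 22302533 counts, and 15 of the 14170 genes tested (0.106%) passed an adjusted p of 0.05 in edgeR's quasi-likelihood test with Benjamini-Hochberg adjustment, 6 higher (0.0423%) and 9 lower (0.0635%) with ghrelin. An unadjusted p under 0.05 was reached by 1896 genes (13.4%), 913 higher (6.44%) and 983 lower (6.94%). The tissue label was checked on 6 hepatocyte markers (Alb, Apoa1, Ttr, Cps1, Ass1 and Cyp2e1), whose summed level was 82946 to 117146 CPM (counts scaled to library size) in PBS and 78889 to 94483 in ghrelin livers. Markers of Kupffer cells summed to 134 to 255 CPM in PBS and 172 to 258 with ghrelin, and those of T and NK cells to 2.17 to 4.21 and 2.98 to 4.40. In bulk liver, fewer cells of a type and less RNA per cell cannot be told apart.

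Counts for the interferon genes themselves were close to absent. Of 21 interferon genes looked up, 18 had 0 counts in every library, among them Ifnb1, which encodes interferon beta, and Ifng, which encodes interferon gamma. A count of 0 over all 12 libraries allows a level of up to 0.0127 CPM (3 counts, counting error only). Many of these genes are related interferon alpha genes (Ifna). How reads shared between related genes were counted is not given, so a 0 there limits the level less. The other 3 were Ifnk with 7 counts over all libraries, Ifnl2 (named Il28a in the table) with 32 and Ifnl3 with 1, and none of the 21 was tested. These levels concern RNA in the liver at the labelled hour and say nothing of interferon protein arriving in the blood.

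The receptors and kinases that receive the signal were present at moderate levels and at similar means in the groups. Ifnar1, a subunit of the type I receptor, measured 45.6 ± 2.46 CPM in PBS and 44.9 ± 0.581 with ghrelin (SD, n = 6 per group). Its partner Ifnar2 measured 56.5 ± 2.38 and 60.1 ± 4.02 CPM. Among the subunits of the interferon gamma receptor, Ifngr1 had a log2 fold change of 0.02 and Ifngr2 one of 0.24 (SE 0.08, edgeR adjusted p = 0.248), from 14.1 ± 1.76 to 16.6 ± 0.636 CPM. Of the kinases, Jak1 had a log2 fold change of -0.02, and Tyk2 one of 0.21 (SE 0.09, edgeR adjusted p = 0.314). Of the 9 receptor and kinase genes tested, 6 were positive and 3 negative on the log2 scale, with a median of 0.02, and none passed the test (all genes 0.106%); 2, Ifngr2 and Tyk2, had an unadjusted p under 0.05 (all genes 13.4%). Ifnlr1, the receptor of interferon lambda, had 17 counts in all and was not tested.

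The 35 genes covered a wide range of basal levels. Genes were set side by side on a scale of CPM per kilobase of annotated exon. The length covers every annotated exon of a gene, whether or not it is used in liver, so the order depends in part on the annotation. Iigp1, an immunity-related GTPase, stood highest with a mean of 59.4 over the 12 livers (range 50.4 to 76.8). Bst2, which encodes tetherin, a membrane protein that holds budding virus at the cell surface, followed with 52.1 (43.0 to 60.5). The ranges of these 2 genes overlapped. Irgm2 was next, with a mean level of 16.1 CPM per kilobase (9.85 to 28.9), so that its highest liver lay below the lowest liver of Bst2. Igtp (10.2), Psmb10 (10.0), Irf1 (8.70), Irgm1 (7.53), Irf9 (7.21) and Stat2 (6.80) were the next in order, and neighbours among them overlapped in range. At the other end were the antiviral effectors Oas2 (0.554), Oasl2 (0.490), Ifi44 (0.367), Mx1 (0.266) and Oas3 (0.183 CPM per kilobase), also with overlapping neighbours. Isg15, a ubiquitin-like modifier that many interferon studies use as a readout, had 376 counts over all libraries and 2.10 CPM per kilobase. Mx1, with 235 counts in all, gave the fewest counts of the 35.

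**Figure D2:**
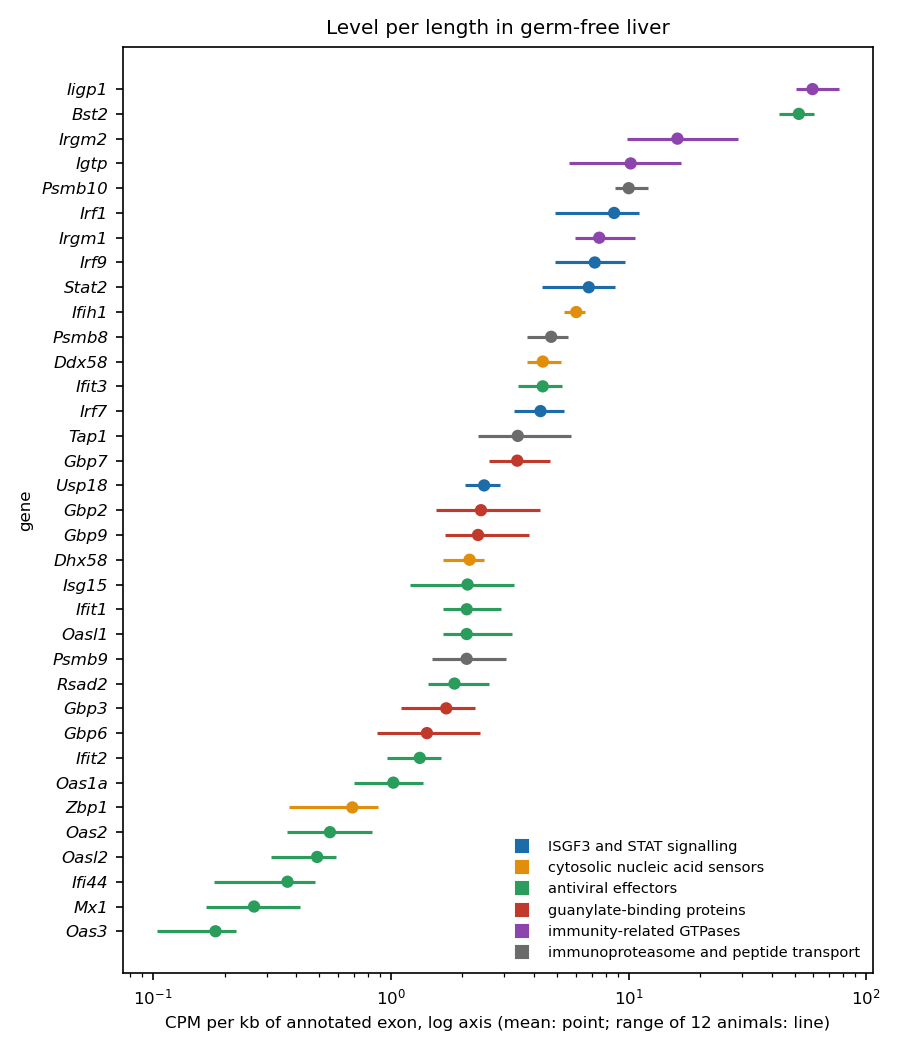
Level per length of the 35 interferon response genes in germ-free liver; the x axis is CPM per kb of annotated exon on a log scale, points are means and lines the range of 12 animals, coloured by role. Iigp1 and Bst2 lie above all other genes, and most antiviral effectors lie in the lower part of the plot.

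The comparison asked whether these transcripts differed after repeated ghrelin in livers of mice without microbiota. Ghrelin against PBS gave no called gene among the 35 by edgeR. The share of all genes called was 0.106%. An unadjusted p under 0.05 was reached by 5 of the 35, a share near the 13.4% of all genes. Of these, 4 were higher (Irf1, Ifit3, Rsad2 and Oasl2; all genes 6.44%) and 1 was lower (Gbp7; all genes 6.94%). The 5 became 3 when PBS 1, ghrelin 1, ghrelin 2 or ghrelin 5 was left out, and 8 without PBS 5. DESeq2 called 1 of the 35, Irf1, beside 204 of all genes (1.44%), and limma-voom called 0. The log2 fold changes ran from -0.43 to 0.53 with a median of 0.07, 23 positive and 12 negative, beside a median of 3.19e-05 and 50% positive over all genes tested. Without PBS 1 the median was 0.0045 with 19 positive. By role, 12 of 13 antiviral effectors were positive, all 4 sensors were positive, and all 9 guanylate-binding protein and immunity-related GTPase genes of the list were negative. Not every relative had a negative estimate. Of 8 tested relatives outside the 35, named with these values after they were seen, 5 were negative and 3 positive. The positive ones were Gbp10 (0.42, SE 0.26), Gbp11 (0.23, SE 0.47) and Ifi47 (0.06, SE 0.20). In Gbp11, which GENCODE M21 types as a polymorphic pseudogene, and in Ifi47 the estimate was smaller than its SE. The numbers of positive and negative genes are counts of signs of single estimates, of which none passed the test. The genes of a family share regulation and, in part, sequence.

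**Figure D3:**
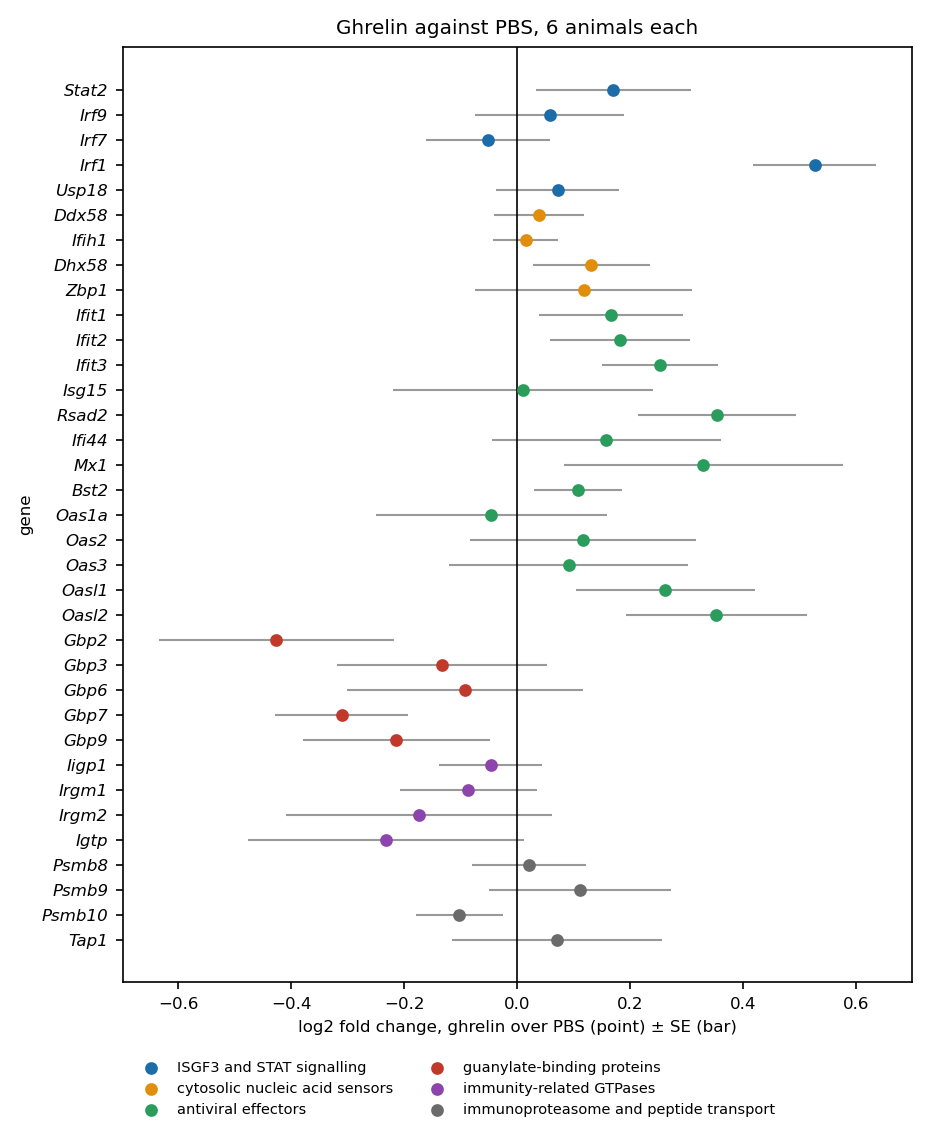
Log2 fold change of each interferon response gene, ghrelin over PBS, from edgeR (point) with its SE (bar), coloured by role, 6 animals per group. Irf1 stands farthest right at 0.53, and all 9 GTPase genes lie left of 0, with Gbp2 farthest at -0.43.

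Irf1 stood apart from the rest of the list. It encodes interferon regulatory factor 1, a transcription factor, itself induced by interferons, that drives many GTPase and antigen presentation genes, and lies at chr11:53770014-53778374 on the plus strand (GRCm38, GENCODE M21). Its level was 19.4, 29.2 and 33.8 CPM (lowest, median and highest) in PBS livers and 37.5, 40.7 and 43.9 CPM in ghrelin livers. Every ghrelin liver lay above every PBS liver, which was the case in either direction for 0.826% of all genes tested and for no other of the 35. The means were 28.3 ± 5.49 and 40.8 ± 2.11 CPM (SD, n = 6 per group). This is a fold of 1.44, or 0.53 on the log2 scale with an SE of 0.11. The edgeR adjusted p was 0.0841, above the threshold. It was 0.00216 with DESeq2, 0.0191 in edgeR without the filter on low counts, 0.0495 without PBS 5 and 0.0463 without PBS 6, the animal with the lowest Irf1 level. Over all 20 alternatives the adjusted p ran from 0.00216 to 0.184 and the log2 fold change from 0.44 to 0.59. The transcript Gm17334 overlaps 135 bp of its exons (3.4%) on the opposite strand, and its reads can be told apart only if strand was used in counting, which is not given in the sources used here.

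The other members of the signalling group did not share this pattern. Stat2, a subunit of ISGF3, measured 25.6, 36.9 and 52.2 CPM in PBS and 38.3, 41.5 and 49.9 CPM with ghrelin, and Irf9, the DNA-binding subunit, 26.4, 39.1 and 52.0 against 34.3, 40.0 and 44.6. In both genes the ghrelin livers lay inside the PBS range, and the highest PBS value was that of PBS 4 and the lowest that of PBS 6. Their log2 fold changes were 0.17 (SE 0.14) and 0.06 (SE 0.13). Irf7, the factor that amplifies type I interferon production, had a log2 fold change of -0.05. Usp18, a protease that removes ISG15 from proteins and dampens the type I receptor, had one of 0.07. Without Irf1 no gene of this group of 5 had an unadjusted p under 0.05.

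Of the sensors of viral nucleic acid, Ifih1, which encodes the RNA sensor MDA5, measured 46.3, 49.2 and 51.4 CPM in PBS and 43.5, 50.1 and 53.7 with ghrelin. Its highest liver was 1.23 times its lowest, the smallest ratio of the 35 genes. Ddx58, which encodes RIG-I, measured 27.0, 30.4 and 33.4 CPM against 26.4, 30.3 and 36.6. The groups overlapped in both genes almost over their whole range. The log2 fold change was 0.13 (SE 0.10) for Dhx58, which encodes the related helicase LGP2, and 0.12 (SE 0.19) for Zbp1, a sensor of Z-form nucleic acid. Zbp1 was less even than the others, at 1.31, 2.45 and 3.11 CPM in PBS and 2.26, 2.49 and 2.97 with ghrelin, a ratio of highest to lowest of 2.38. The median over the 4 sensors was 0.08, positive under each alternative, with a range of 0.03 to 0.13 when 1 library at a time was left out; without ghrelin 6, 2 of the 4 were positive.

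Among the antiviral effectors, Rsad2, Ifit3 and Oasl2 had the smallest p-values. Rsad2 encodes viperin, which makes a nucleotide that ends viral RNA chains, and measured 6.30, 6.91 and 8.32 CPM in PBS against 6.19, 9.35 and 11.2 with ghrelin (log2 fold change 0.35, SE 0.14, edgeR adjusted p = 0.297). The lowest Rsad2 value of all 12 livers belonged to ghrelin 6, so that the groups overlapped in full at the lower end. Ifit3, of the family that binds foreign RNA ends, measured 5.97, 6.91 and 8.46 CPM against 7.43, 8.22 and 9.17 (0.25, SE 0.10, edgeR adjusted p = 0.305). Oasl2, of the oligoadenylate synthetase-like family, measured 1.99, 2.84 and 3.37 CPM against 2.57, 3.68 and 3.75 (0.35, SE 0.16, edgeR adjusted p = 0.357). In Ifit3 and Oasl2 the middle ghrelin value lay near or above the upper PBS values, and the ranges overlapped.

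The remaining effectors had smaller differences or few counts. Ifit1 and Ifit2 had log2 fold changes of 0.17 (SE 0.13) and 0.18 (SE 0.12), Oasl1 one of 0.26 (SE 0.16), and Bst2 one of 0.11 (SE 0.08). The GTPase Mx1, at 0.629 to 1.49 CPM in PBS and 0.893 to 1.57 CPM with ghrelin, had a log2 fold change of 0.33 with an SE of 0.25. The synthetases that make the activator of RNase L gave 0.12 for Oas2, 0.09 for Oas3 and -0.05 for Oas1a, each with an SE of at least 0.20. Ifi44 had a log2 fold change of 0.16 and Isg15 one of 0.01 with an SE of 0.23, a spread too wide at this depth to show a modest difference. The median over the 13 effectors was 0.17, and it ran from 0.13 to 0.23 with 10 to 13 positive genes when 1 library at a time was left out.

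The 5 guanylate-binding protein genes of the list had negative estimates. Gbp2, a guanylate-binding protein that coats pathogen vacuoles, measured 3.88, 6.52 and 10.7 CPM in PBS and 4.09, 4.86 and 7.22 with ghrelin (log2 fold change -0.43, SE 0.21, edgeR adjusted p = 0.394). Gbp7, whose promoter held both kinds of match, measured 16.4, 20.4 and 26.2 CPM against 14.5, 16.8 and 20.4 (-0.31, SE 0.12, edgeR adjusted p = 0.285). Ranges overlapped in both genes, and the highest value of each belonged to PBS 5. Gbp9 had a log2 fold change of -0.21 (SE 0.17), Gbp3 one of -0.13 (SE 0.19) and the row named Gbp6 one of -0.09 (SE 0.21). That row shares 40% or more of its exon bases with the genes that GENCODE M21 names Gbp6 and Gbp10, so which of these the counts describe is uncertain.

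The immunity-related GTPases, which in mice defend against intracellular bacteria and protozoa, included the 2 genes with the highest ratios between livers among the 35, Igtp and Irgm2. Irgm2 measured 36.4, 51.1 and 107 CPM in PBS and 44.7, 48.8 and 77.3 CPM with ghrelin (log2 fold change -0.17, SE 0.24, edgeR adjusted p = 0.794). Igtp, also called Irgm3, measured 11.4, 19.8 and 33.6 CPM against 13.9, 16.1 and 30.2 (-0.23, SE 0.24). In both genes the PBS group held the highest and the lowest liver, PBS 5 and PBS 6, and enclosed the whole ghrelin range. Irgm1 had a log2 fold change of -0.09 (SE 0.12). Iigp1, the most abundant of the 35 per length, measured 308, 341 and 447 CPM against 294, 348 and 385 (-0.05, SE 0.09). Igtp and Irgm2, whose upstream sequences are printed above, share 162 bp of exon on the same strand (8.01% and 4.39% of their exon bases), and close relatives among these families can share reads.

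Leaving out single animals moved the GTPases as a group. Their median log2 fold change was -0.17 with 9 of 9 negative, and -0.05 with 3 of 9 positive when PBS 5 was left out. Without PBS 4 it was -0.12 with 1 of 9 positive. It moved the other way to -0.29 without PBS 6, to -0.28 without ghrelin 2 and to -0.25 without PBS 1, and it was -0.11 without ghrelin 4, each with 0 positive. Without PBS 5, Irgm2 had a log2 fold change of 0.05 and Gbp2 one of -0.25. None of the other 8 alternatives gave a positive GTPase gene.

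PBS 5 held the highest value of the 12 livers for 8 of the 9 GTPase genes, and PBS 4 for Iigp1. Over all 35 genes PBS 5 was highest in 12, against 6.92% of all genes tested. The lowest value belonged to PBS 1 in 12 of the 35 and to PBS 6 in 11, against 7.94% and 7.59% of all genes. The median deviation of the 9 GTPases from their own means over 12 livers was 0.74 on the log2 scale in PBS 5, 0.38 in PBS 4, 0.32 in ghrelin 2, -0.24 in ghrelin 3, -0.32 in PBS 1, -0.33 in ghrelin 4 and -0.40 in PBS 6. For the 13 antiviral effectors it was 0.08 in PBS 5, -0.33 in PBS 1 and -0.31 in PBS 6. PBS 1 and PBS 6 were thus low for both groups of genes, while PBS 5 was high for the GTPases and at 0.08 for the effectors. PBS 5 was also highest for Dhx58, Zbp1, Psmb9 and Tap1. Its summed neutrophil markers were the highest of all livers (10.1 CPM, against 3.90 to 7.84 in the other PBS and 0.816 to 4.90 in the ghrelin livers). Of that sum S100a9 gave 5.48 CPM. S100a8 was highest in PBS 6 (2.87 CPM), and Retnlg and Mmp8 were highest in PBS 4 (1.15 and 0.932 CPM). Ly6g had 4 counts over all libraries. In PBS 5 the T and NK cell markers summed to 4.21 CPM, the highest of the PBS group, of which Cd4 gave 2.58. The other 9 summed to 1.62 CPM there, below PBS 2 (1.99) and PBS 4 (2.19). Cd3e and Klrb1c were lowest of all livers in PBS 5 (0.0438 and 0.0876 CPM), and Gzmb was highest there (0.394 CPM). These genes were below the count filter, with 46, 102 and 53 counts over all libraries. In PBS 1 the Kupffer cell markers had their lowest sum, 134 CPM against 172 or more in every other liver, and 5 of the 6 were lowest there. In PBS 6, also low for both groups of genes, they summed to 196 CPM, below the PBS median of 209 and above the ghrelin median of 186. Of the T and NK cell markers 1 of 10 passed the count filter, of the neutrophil markers 3 of 5 and of the Kupffer cell markers 6 of 6, and the part of these cells in the results was not tested.

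**Figure D4:**
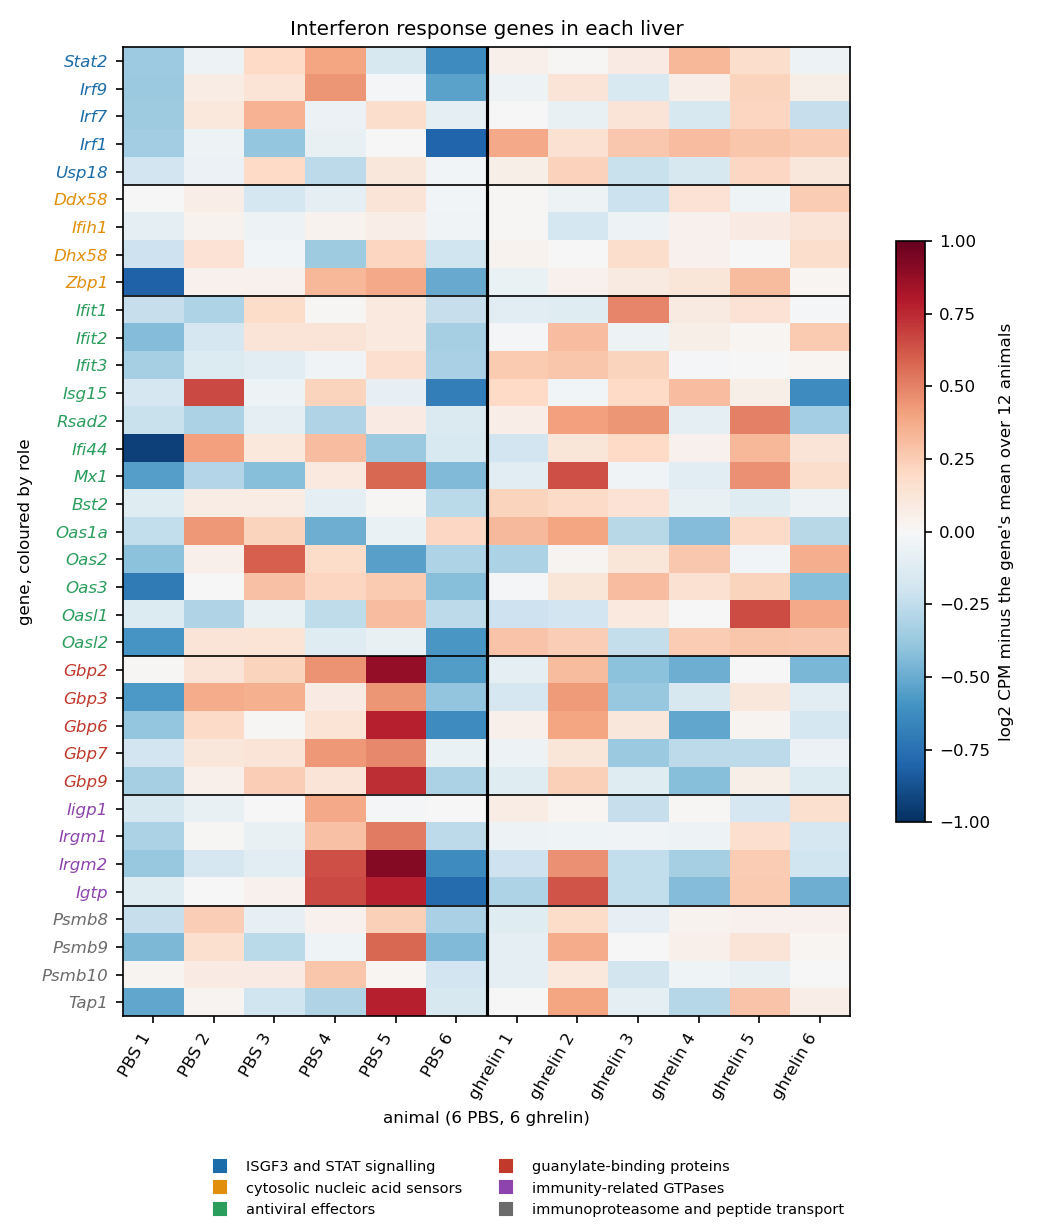
Log2 CPM of each interferon response gene minus its mean over 12 animals, from -1 (blue) to 1 (red); rows are genes coloured by role, columns are animals, and the black line separates PBS from ghrelin. The GTPase rows are reddest in PBS 5, with a median deviation of 0.74, and the columns of PBS 1 and PBS 6 are blue over most rows.

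The PBS livers differed among themselves more than the ghrelin livers did for these genes. The SD of log2 CPM was larger in PBS than in ghrelin for 27 of the 35 genes (77.1%), beside 47.1% of all genes tested. Its median was 0.33 in PBS and 0.18 with ghrelin, and 0.26 in PBS without PBS 5. Over all genes the medians were 0.18 and 0.19. For the 9 GTPases, all of which had the larger SD in PBS, the medians were 0.43 (0.36 without PBS 5) and 0.28. The ratio of the highest to the lowest of the 12 livers reached 2.95 for Igtp, 2.94 for Irgm2 and 2.76 for Gbp2, beside a median of 1.59 over all genes. The difference in spread between the groups is a description, without a test.

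**Figure D5:**
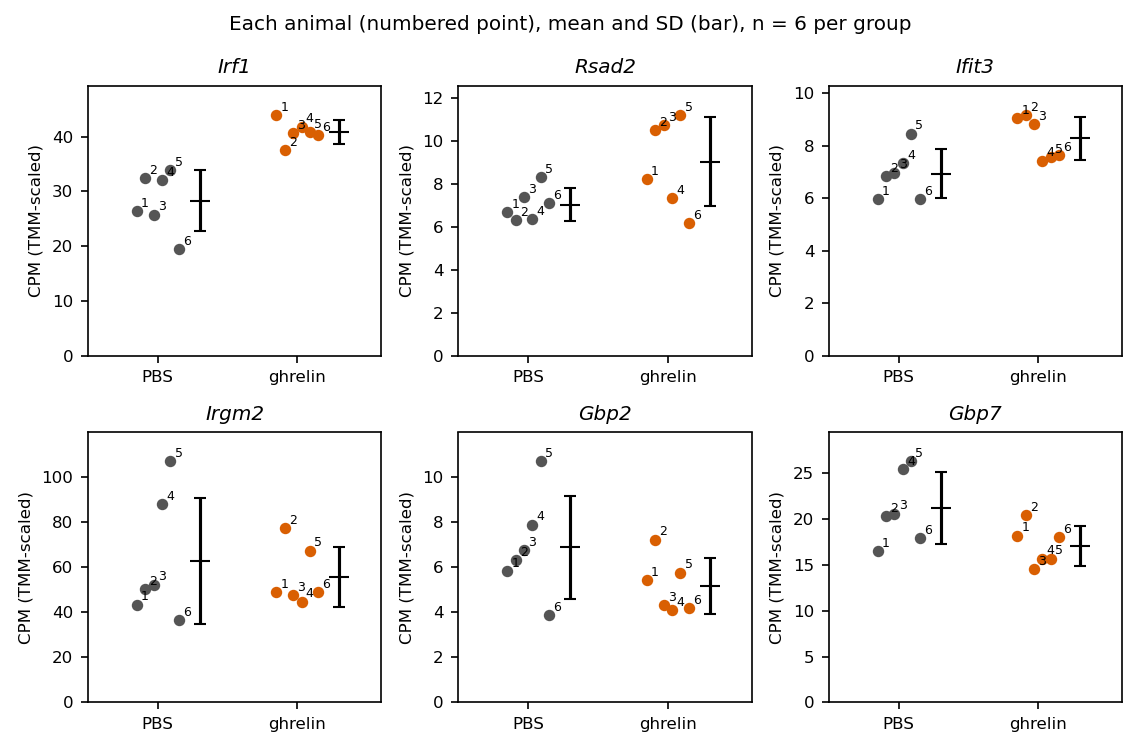
CPM of 6 genes in each animal, numbered by replicate, with the mean and SD of each group as a bar (n = 6 per group); the y axes start at 0. For Irf1 the ghrelin points, 37.5 to 43.9 CPM, all lie above the PBS points, whereas for Irgm2, Gbp2 and Gbp7 PBS 5 is the highest point.

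The immunoproteasome and peptide transport genes had a median log2 fold change of 0.05, with 3 positive and 1 negative. Their median deviation was 0.41 in PBS 5, 0.28 in ghrelin 2, -0.34 in PBS 1 and -0.26 in PBS 6. In those livers the sign was that of the GTPases, but it was not in PBS 3, PBS 4 and ghrelin 6. Psmb8 and Psmb9, subunits that replace the constitutive ones under interferon gamma, had log2 fold changes of 0.02 (SE 0.10) and 0.11 (SE 0.16), and Psmb10, another such subunit, had one of -0.10 (SE 0.08). Tap1, a subunit of the peptide transporter of the endoplasmic reticulum, measured 12.7, 16.0 and 31.3 CPM in PBS and 14.9, 18.6 and 24.0 with ghrelin (log2 fold change 0.07, SE 0.19). The PBS range enclosed the ghrelin range, and its top value was that of PBS 5, without which the log2 fold change of Tap1 was 0.30 (SE 0.12, edgeR adjusted p = 0.273). Psmb9 and Tap1 overlap by 212 bp on opposite strands, and Psmb8 overlaps Gm20496 by 498 bp (14.7%), with the same limit as for Irf1.

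Other genes of the pathway were described by lists set by role. Of 14 adaptors and factors upstream of interferon production, 6 were positive and 8 negative with a median of -0.03, and none was called or had an unadjusted p under 0.05. Tlr4, the receptor of bacterial lipopolysaccharide, had a log2 fold change of -0.37 (SE 0.21, edgeR adjusted p = 0.454), Tlr3, a receptor of double-stranded RNA, one of 0.19, and Irf8 one of -0.21. Of 9 genes that restrain the response, 3 were positive and 6 negative with a median of -0.04. Among these, Socs3, an inhibitor of JAK signalling, measured 21.2 ± 9.40 CPM in PBS and 34.8 ± 18.4 with ghrelin (0.71, SE 0.37, edgeR adjusted p = 0.415). Tnfaip3, which encodes the ubiquitin-editing enzyme A20, gave -0.46 on the log2 scale (SE 0.29), but -0.06 without PBS 5. Adar, an RNA-editing enzyme, had one of -0.12. Socs1, with 57 counts in all, was below the filter.

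A further 55 interferon-stimulated genes outside the 35 had a median log2 fold change of -0.01, with 25 positive and 30 negative. No gene of this list passed edgeR's test, 3 had an unadjusted p under 0.05 (all genes 13.4%), and DESeq2, which called 1.44% of all genes, gave Mx2 an adjusted p of 0.0483. Mx2, the second Mx GTPase gene, which GENCODE M21 types as a polymorphic pseudogene, measured 5.72 ± 1.46 CPM in PBS and 8.38 ± 1.35 with ghrelin (log2 fold change 0.55, SE 0.16, edgeR adjusted p = 0.187). Apol9a, an apolipoprotein L gene, had a log2 fold change of 0.21 (SE 0.09, edgeR adjusted p = 0.326). Nampt, which encodes an enzyme of NAD synthesis, had one of -0.26 (SE 0.11, edgeR adjusted p = 0.320). Over the ligands, receptors, adaptors, brakes and further targets, 87 of the 94 genes that are not ligands were tested and 0 were called by edgeR, with 5 at an unadjusted p under 0.05 (all genes 13.4%).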

How the data were processed

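Liver total RNA was depleted of ribosomal RNA, made into stranded libraries and read from both ends, per the labels' protocols. The deposited values are raw counts per gene, made by the authors without normalization. The aligner was STAR 2.4.0i and the build mm10, per the submitters' processing notes. For the counting tool, annotation, strand setting and multi-mapping reads, nothing is given in the sources used here. Paralogs and overlapping genes are therefore uncertain: 11 of the 35 genes share exon bases with another gene of the table, matched by Ensembl identifier. The row named Gbp6 is not in this count. The GENCODE M21 genes with which it shares 40% or more of its exon bases have identifiers without a row.

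Genes were filtered with filterByExpr (minimum count 10, minimum total 15), scaled by TMM and tested on all 14170 genes with the two-sided quasi-likelihood F test of edgeR 4.0.16 in R 4.3.3, with Benjamini-Hochberg adjustment and a threshold of 0.05; the biological coefficient of variation was 0.145. The SE was taken as the size of the log2 fold change over the root of its F value. DESeq2 1.42.0 and limma 3.58.1 (voom) were alternatives, with other scalings, filters, robust estimation, a replicate block and each library left out. CPM use the TMM factors. Log2 CPM, with a prior count of 2, gave SDs and deviations. Exon lengths and positions come from GENCODE M21. The fit was tested on simulated data. Counting limits cover counting error only, since PCR copies are not independent molecules.

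The named genes are the 35, up to 3 genes of each pathway list by unadjusted p, and Jak1, Tyk2, Ifnar1, Ifnar2, Ifngr1, Ifngr2, Ifnb1 and Ifng; 1 further gene that the rule takes in is not reported here. Ifnlr1, Ifnk, Ifnl2, Ifnl3 and Socs1 were named after their counts were seen. The genes and lists were chosen with earlier results of these data known. Chi-square per degree of freedom between libraries of the same group was 11.6 to 48.5, above counting noise, so each library was counted as 1 sample.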

Additional observations from a re-analysis of the deposited data

Results flagged for a closer look

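In 7 of 102 sets of 6 livers (51 named genes in 2 groups), 1 liver stood far from the other 5 of its group by Dixon's ratio at its 95% level, which chance gives in about 1 of 20 sets. PBS 5 stood above its group for Oasl1 (6.62 CPM), Tap1 (31.3 CPM) and Tnfaip3 (11.1 CPM). PBS 4 stood above its group for Iigp1, at 447 CPM. Ghrelin 3 stood below its group for Oasl2, at 2.57 CPM. Ghrelin 5 stood above its group for Irgm1 (48.7 CPM) and below it for Ifngr2 (15.4 CPM).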

How the results depend on the processing

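No named gene reversed under any of the 20 alternatives where its log2 fold change exceeded its SE, and of 1020 gene values 1015 kept their side of the threshold; the other 5 passed it, Irf1 under 4 alternatives and Mx2 with DESeq2. The number of the 35 genes called, 0 by edgeR, was 1 without the filter on low counts and 1 with DESeq2, and 0 to 1 with each library left out in turn, in each case Irf1. The median over the 35 ran from 0.0045 (without PBS 1) to 0.098 (without PBS 5), with 19 to 25 genes positive.

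The number of all genes called, 15, was 63 without the filter, 204 with DESeq2 and 9 with robust estimation. With each library left out it ran from 0 to 32. It was 0 when ghrelin 1 was left out (1675 at an unadjusted p under 0.05) or ghrelin 3 (1536), 5 for PBS 3, 6 for ghrelin 6 and 9 for ghrelin 2. It was 23 for PBS 6, 24 for PBS 5 and 32 for ghrelin 4. The cause was not tested. With the replicate number as a block 58 genes were called, none of the 35; the deviations of same-numbered libraries correlated by -0.081 to 0.272 and only number 4 correlated best with its own number, so the numbers were not taken as pairs. Genes of few counts, such as Isg15, Mx1 and Oas3, have the widest limits relative to their level.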

Other observations

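Of the 55 further interferon-stimulated genes, 15 had their highest value in PBS 5, 18 their lowest in PBS 1 and 12 their lowest in PBS 6, beside 6.92%, 7.94% and 7.59% of all genes tested. Of 8 relatives of the 9 GTPases in this list, named here after their values were seen, 6 were highest in PBS 5. Gbp4, a guanylate-binding protein gene, was at 9.99 CPM in PBS 5, and Gbp8 at 23.5. Ifi47, an immunity-related GTPase gene, was at 30.5 CPM in PBS 5, and Tgtp1, which encodes a T-cell-specific GTPase, at 7.27. Cxcl10, a chemokine that attracts T cells, was at 3.11 CPM in PBS 5, above the highest ghrelin liver at 1.57 CPM. Cxcl9, another chemokine gene of this list, was highest in ghrelin 2 at 9.11 CPM. It was at 6.57 CPM in PBS 5, below PBS 3 (7.30) and PBS 4 (8.49). Both were named after their values were seen. The other 2 relatives were Gbp10, highest in ghrelin 2 at 10.5 CPM and at 8.81 in PBS 5, and Gbp11, highest in PBS 4 at 6.74 CPM and at 2.23 in PBS 5. None of these genes was called by edgeR between the groups. Their log2 fold changes were -0.37 for Gbp4, -0.20 for Gbp8, 0.06 for Ifi47 and -0.31 for Tgtp1. For Cxcl10, Cxcl9, Gbp10 and Gbp11 they were -0.30, -0.11, 0.42 and 0.23.

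Of the 5 neutrophil markers, S100a8, S100a9 and Retnlg were tested and had log2 fold changes of -1.44, -0.99 and -0.99 with ghrelin, the smallest edgeR adjusted p being 0.145. Their summed level with the other 2 markers was 3.90 to 10.1 CPM in PBS and 0.816 to 4.90 CPM with ghrelin.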
